A study of Mus musculus with 6 samples.

Results

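Glucose enters muscle fibres through facilitative transporters, and insulin raises that entry through a relay from its receptor to the transporter GLUT4. Described here are 10 genes of that route: the transporters Slc2a1, Slc2a3 and Slc2a4, the insulin receptor Insr, its substrates Irs1 and Irs2, the PI3-kinase subunit Pik3r1, the kinase Akt2 and the Rab-regulating proteins Tbc1d1 and Tbc1d4. They were chosen by name, as all probe sets, control probe sets aside, that the platform annotation assigns to exactly 1 gene on that list. The rule found 27 probe sets for the 10 genes, out of 34945 probe sets with a single gene name. Total RNA of quadriceps, a thigh muscle, was hybridised to Affymetrix arrays, which read each transcript with several probes grouped into a probe set. The 3 transgenic mice, labelled hSkeletal Actin -ERRg transgenic, carried the nuclear receptor ERRγ under a skeletal actin promoter, which is active in muscle fibres. The 3 wild-type mice carried no such transgene according to their labels. All 6 mice were male, C57/BL6 and 8 weeks old, each array came from a separate biological replicate, and the number of transgenic founder lines is not given in the sources used here.

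Insulin binding activates the receptor kinase, which phosphorylates the substrates IRS1 and IRS2, and these recruit PI3-kinase through its regulatory subunit. The lipid that PI3-kinase makes activates Akt2, which phosphorylates TBC1D4 and TBC1D1. These proteins keep Rab GTPases inactive, and once phosphorylated they release the vesicles that carry GLUT4 to the surface. Contraction and the kinase AMPK act on TBC1D1 as well, so that working muscle takes up glucose without insulin. Transcript levels say nothing of this phosphorylation or of where GLUT4 lies in the cell.

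Values are MAS5 signals, an intensity on a linear scale, and fold changes of the test are on the log2(signal + 16) scale, transgenic minus wild-type. The added 16 units understate the change of dim probe sets. A probe set passed when its limma p, adjusted by Benjamini-Hochberg over all 27018 tested probe sets, was under 0.05. Levels of different probe sets cannot be compared with each other. The transgene served as a check of the labels: the brightest Esrrg probe set gave 14427, 13808 and 12697 in transgenic muscle, against 71.6, 61.0 and 24.1 in wild-type muscle. Its log2 difference was 7.72 (SE 0.24, limma adjusted p = 1.69e-07). Median signals of the arrays were 57.1 to 61.9 in transgenic and 52.1 to 56.3 in wild-type muscle. With 3 arrays in each genotype, precision is limited by their number.

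Sequences are shown for the promoters of the 2 insulin receptor substrates, of which only Irs1 passed the test, and of the Rab-regulating pair, since ERRγ acts by binding DNA. They are the 150 bases before an annotated start, 5′ to 3′ on the gene's strand, from RefSeq (GRCm38.p6), and capitals mark CACGTG, the E-box core that basic helix-loop-helix factors read.
Irs1, chr1:82291440-82291589, minus strand: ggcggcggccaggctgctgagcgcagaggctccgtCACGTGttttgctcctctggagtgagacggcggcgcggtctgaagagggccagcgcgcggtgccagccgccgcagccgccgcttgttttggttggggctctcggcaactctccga
Irs2, chr8:11008930-11009079, minus strand: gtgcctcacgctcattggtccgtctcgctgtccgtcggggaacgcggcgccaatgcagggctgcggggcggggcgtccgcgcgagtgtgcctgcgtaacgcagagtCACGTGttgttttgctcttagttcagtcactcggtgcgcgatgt
Tbc1d1, chr5:64160110-64160259, plus strand: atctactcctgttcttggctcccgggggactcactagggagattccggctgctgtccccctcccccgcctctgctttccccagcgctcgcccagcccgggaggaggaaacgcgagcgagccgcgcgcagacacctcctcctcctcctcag
Tbc1d1, chr5:64230207-64230356, plus strand: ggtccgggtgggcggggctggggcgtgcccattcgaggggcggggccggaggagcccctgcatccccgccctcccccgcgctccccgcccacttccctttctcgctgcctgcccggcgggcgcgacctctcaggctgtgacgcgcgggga
Tbc1d4, chr14:101609192-101609341, minus strand: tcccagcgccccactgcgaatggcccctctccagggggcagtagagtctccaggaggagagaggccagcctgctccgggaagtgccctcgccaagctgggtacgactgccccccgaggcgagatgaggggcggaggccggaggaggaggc

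The table holds windows, of 250 bases before to 50 after a start, for 7 of the 10 genes, 12 windows in all. Both strands were searched for TNAAGGTCA, the site that ERR receptors bind, for its core half-site AGGTCA, which lies within it, and for CACGTG. Neither TNAAGGTCA nor AGGTCA occurs in any of the 12 windows, while 1.28% and 16.3% of all 32851 windows hold them. This says only that those letters are not in these windows. CACGTG occurs in the windows of Irs1 and Irs2, 115 and 44 bases before the start, and in 7.15% of all windows. Around it the windows share the run gtCACGTGtt, of 10 bases. The Irs1 and Irs2 windows have a GC content of 71.3% and 72.0%, the Tbc1d1 windows 69.3% and 74.0%, and the Tbc1d4 window 55.7%. A match of letters is a description and not a measured binding site.

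Taking the brightest probe set of each gene, Tbc1d1 rose in transgenic muscle, Slc2a3 and Irs1 fell, and the other 7 genes did not pass. The insulin-responsive transporter Slc2a4 and the insulin receptor Insr were among those that did not pass. Of 10 genes, 1 rose and 2 fell, where 7.64% and 5.75% of all 12537 genes tested did so, 13.4% in both directions together. The genotypes did not overlap for 6 of the 10 genes, against 33.2% of all genes. The median log2 difference of the 10 genes was -0.15, and that of all genes 0.03. Of the 27 probe sets, 24 had a mean signal above the filter of 37.7, and 3 of these rose and 4 fell, 1 of the 4 being above the filter only through wild-type muscle. Among all tested probe sets 6.37% rose and 5.16% fell, 11.5% together, and genotypes were apart in 13 of the 24 against 30.9% of all. The members passing the filter are not all members: 2 dim probe sets of Slc2a3 and 1 of Insr stayed untested. No detection calls were used, so a dim signal may lie within background.

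**Figure D1:**
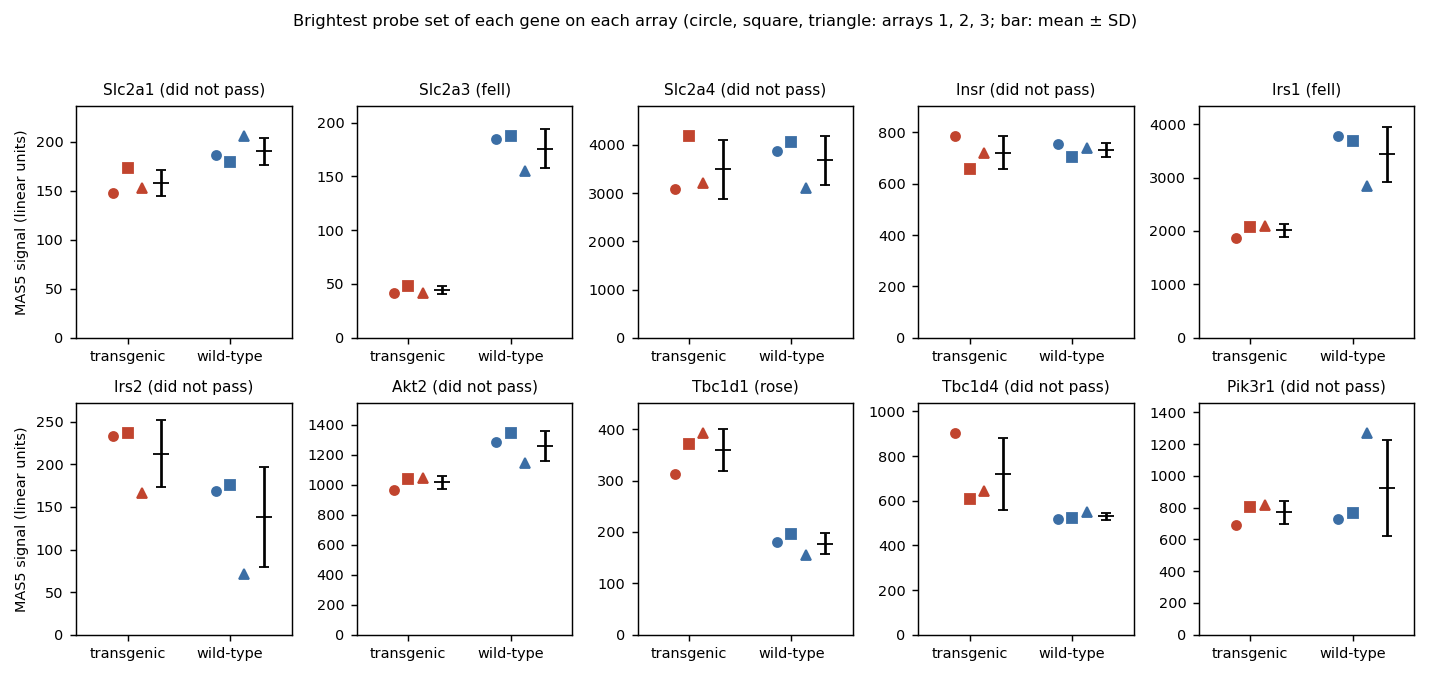
Each panel plots the MAS5 signal (linear units, axis from 0) of the brightest probe set of 1 gene on each array, transgenic on the left in red and wild-type on the right in blue, with the mean ± SD of 3 arrays in black. Slc2a3, Irs1 and Tbc1d1 show separated genotypes and passed, Slc2a1, Akt2 and Tbc1d4 are separated but did not pass, and Slc2a4, Insr, Irs2 and Pik3r1 overlap.

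Among the transporters, Slc2a3 had the largest difference. It encodes GLUT3, a high-affinity transporter known from neurons and also made by leukocytes and platelets. Its brightest probe set (1437052_s_at) gave 41.9, 48.3 and 41.8 in transgenic muscle, against 185.0, 187.6 and 155.2 in wild-type muscle. Every transgenic array lay below every wild-type array. The means were 44.0 ± 3.7 in transgenic and 175.9 ± 18.0 in wild-type muscle (SD, n = 3 each), a ratio of 0.250. The log2 difference was -1.67 (SE 0.18, limma adjusted p = 0.000292), which ranked 109 by size among the genes tested. A second probe set (1455898_x_at) gave 19.8, 11.2 and 5.1 in transgenic against 111.5, 132.6 and 72.1 in wild-type muscle, with a log2 difference of -2.11 (SE 0.33, limma adjusted p = 0.00251). This probe set was above the filter only through its wild-type signals, the transgenic mean being 12.0 ± 7.4 (SD, n = 3), so its call is not further support for the fall. The untested probe set 1421924_at gave 3.8, 4.3 and 5.3 in transgenic against 25.3, 29.5 and 11 in wild-type muscle, without overlap. The last Slc2a3 probe set (1427770_a_at) overlapped, at 9.7, 38.5 and 4.6 in transgenic against 29.8, 27.2 and 29.9 in wild-type muscle. In Affymetrix naming, the ending _s_at marks probes shared by related transcripts and _x_at probes that may match other sequences, so cross-hybridisation to another gene was not tested. The fall at the brightest probe set passed in all 16 alternative analyses, with adjusted p of at most 0.00352.

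Of 8 macrophage and other leukocyte markers, 1 passed and 1 was without overlap, against 13.4% and 33.2% of all genes. Their summed signal was 1871 to 2424 in transgenic and 2652 to 2952 in wild-type muscle. Only Lyz2, lysozyme, passed among the 8, at 713.6 ± 87.1 in transgenic and 1053 ± 135.1 in wild-type muscle (log2 difference -0.55, limma adjusted p = 0.0244), and no marker was at 0. Lyz2 was also the 1 without overlap, while the other 7 overlapped between genotypes and did not pass. Bright probe sets such as Lyz2 weigh most in the sum, so the sum does not show a fall across the markers. The part of these markers in the Slc2a3 result was not tested. In whole muscle, fewer cells of a type and less RNA per cell cannot be told apart.

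Slc2a4 encodes GLUT4, the transporter that insulin and contraction bring to the fibre surface. Its brighter probe set gave 3085, 4187 and 3206 in transgenic muscle and 3881, 4068 and 3102 in wild-type muscle. The genotypes overlapped across the whole range. The log2 difference was -0.08 (SE 0.14), with a 95% interval of -0.39 to 0.23 (limma adjusted p = 0.770). The second probe set gave 2584, 2903 and 2344 in transgenic and 2885, 2969 and 2696 in wild-type muscle, a difference of -0.13 with an interval of -0.36 to 0.10. These arrays do not exclude a difference within those intervals.

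Slc2a1 encodes GLUT1, the transporter of basal glucose uptake, which endothelial and perineurial cells also make. Its brightest probe set gave 147.2, 172.9 and 152.9 in transgenic against 186.1, 179.0 and 205.8 in wild-type muscle. All transgenic arrays were lower, but the log2 difference of -0.25 (SE 0.14) did not pass (limma adjusted p = 0.314). The other Slc2a1 probe sets overlapped between genotypes and pointed the other way, at 0.45 (SE 0.28) and 0.02 (SE 0.20), so the probe sets of this gene disagree in sign. Endothelial markers moved with genotype: 6 of 8 rose and none fell, while 7.64% of all genes rose and 5.75% fell. The summed signal of these markers was 4054.5 to 4567 in transgenic and 2307 to 2585 in wild-type muscle. Their part in the Slc2a1 signals was not tested.

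**Figure D2:**
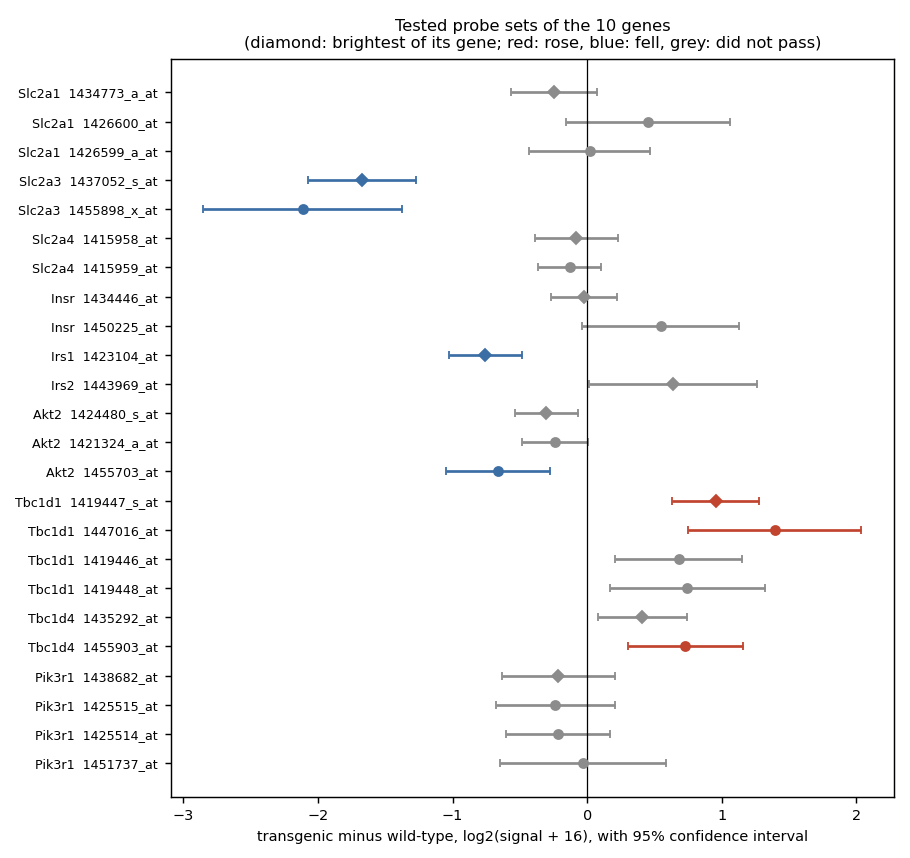
The plot gives the difference of transgenic minus wild-type on the log2(signal + 16) scale, with its 95% confidence interval, for the 24 tested probe sets, with diamonds for the brightest of each gene. The 2 tested Slc2a3 probe sets lie at -1.67 and -2.11, the 4 of Tbc1d1 between 0.68 and 1.39, and those of Slc2a4 and Pik3r1 span 0.

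Insr, the receptor itself, differed by less than the spread between replicates at its brightest probe set. The signals were 786.3, 659 and 719.6 in transgenic and 754.7, 703.1 and 738.9 in wild-type muscle, with overlapping genotypes. The log2 difference was -0.02 with a 95% interval of -0.27 to 0.22 (limma adjusted p = 0.922). A dimmer probe set gave 70.5, 76.8 and 55.1 in transgenic against 32.4, 37.4 and 55.2 in wild-type muscle. Here 1 transgenic and 1 wild-type array met, and the difference of 0.54 (SE 0.26) did not pass (limma adjusted p = 0.227). The untested probe set averaged 36.1 ± 3.4 in transgenic and 31.1 ± 21.0 in wild-type muscle (SD, n = 3 each).

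Of the receptor's substrates, Irs1 fell. Its only probe set gave 1869.7, 2069 and 2093 in transgenic muscle, against 3779, 3679 and 2840.4 in wild-type muscle. The highest transgenic array lay below the lowest wild-type array. The means were 2010.3 ± 122.4 in transgenic and 3433 ± 515.4 in wild-type muscle (SD, n = 3 each), a ratio of 0.586 and a log2 difference of -0.76 (SE 0.12, limma adjusted p = 0.00288). The call held in all 16 alternatives, with adjusted p of at most 0.0385. Its neighbour in the pathway, Irs2, whose promoter carries the same E-box letters, gave 233.5, 236.8 and 167 in transgenic and 168.2, 175.4 and 70.9 in wild-type muscle. The lowest transgenic array overlapped the wild-type range. The log2 difference was 0.64 (SE 0.28), with a 95% interval of 0.01 to 1.26 before correction, and it did not pass (limma adjusted p = 0.186). Whether the genotype acted differently on the 2 substrates was not tested.

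Pik3r1 encodes p85α, the regulatory subunit that ties PI3-kinase to the substrates. None of its 4 tested probe sets passed, and all overlapped between genotypes. The brightest gave 688.5, 805.8 and 816.3 in transgenic and 731.6, 767.9 and 1269.6 in wild-type muscle, with a log2 difference of -0.21 (SE 0.19, limma adjusted p = 0.523). Wild-type 3 was the highest of all 6 arrays at each of the 4 probe sets. Without it the difference at the brightest probe set was 0.03 (limma adjusted p = 0.900). Adipocyte markers stood out on the same array. The summed signal of 5 of them was 12706 to 17366 in transgenic muscle, and 13854, 11500.5 and 26420 in wild-type arrays 1, 2 and 3, and on the log2 scale wild-type 3 exceeded the mean of wild-type 1 and 2 by a median of 1.602. None of the 5 adipocyte markers was at 0 or passed the genotype test. Their part in the Pik3r1 signals was not tested.

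**Figure D3:**
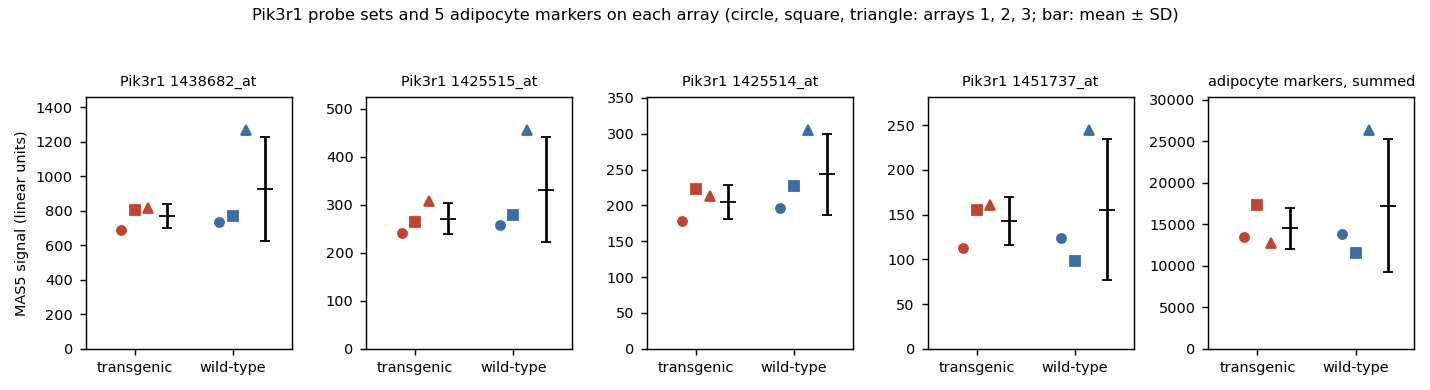
The first 4 panels plot the MAS5 signal (linear units, axis from 0) of each Pik3r1 probe set by array, and the last panel the sum over 5 adipocyte markers, transgenic on the left and wild-type on the right, with mean ± SD of 3 arrays. In all 5 panels the wild-type triangle, array 3, is the highest point, at 1269.6 for the brightest Pik3r1 probe set and 26420 for the adipocyte sum.

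Akt2, the Akt isoform that carries insulin's signal to glucose uptake, was lower on every transgenic array at all 3 probe sets, but only the dimmest passed. The brightest gave 965.1, 1041 and 1044 in transgenic against 1287, 1346 and 1148.5 in wild-type muscle, which is -0.30 on the log2 scale (SE 0.11, limma adjusted p = 0.0934). This probe set (1424480_s_at) has the ending _s_at, and its cross-hybridisation was not tested. The middle probe set gave 497.6, 515.5 and 480.8 in transgenic against 633.6, 569.6 and 571.4 in wild-type muscle, at -0.24 (SE 0.11). The dimmest gave 177.9, 127 and 129.3 in transgenic against 281.1, 216.5 and 214.9 in wild-type muscle, and fell by 0.66 on the log2 scale (SE 0.18, limma adjusted p = 0.0349). That call was lost without transgenic 2, transgenic 3, wild-type 1 or wild-type 2, with adjusted p of 0.0690 to 0.143. It was also lost with no filter (limma adjusted p = 0.0660) and in the limma fit without its intensity trend (adjusted p = 0.0814). Averaged over the 3 probe sets, Akt2 fell by 0.40 (limma adjusted p = 0.0266), and without wild-type 3 the brightest probe set passed as well (limma adjusted p = 0.0466).

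Tbc1d1, the Rab-regulating protein on which insulin and AMPK converge, rose. Its brightest probe set gave 313.5, 371.3 and 392.5 in transgenic against 180.8, 195.6 and 155.4 in wild-type muscle. The genotypes did not overlap. This probe set (1419447_s_at) has the ending _s_at, and its cross-hybridisation was not tested. The means were 359.1 ± 40.9 in transgenic and 177.3 ± 20.3 in wild-type muscle (SD, n = 3 each), a ratio of 2.03 and a log2 difference of 0.96 (SE 0.15, limma adjusted p = 0.00211). A second probe set gave 438.3, 332.6 and 379.5 in transgenic against 149.3, 220.6 and 72.6 in wild-type muscle and rose by 1.39 (SE 0.29, limma adjusted p = 0.0119). That call was lost without transgenic 1 (limma adjusted p = 0.0582) and in the limma fit without its intensity trend (adjusted p = 0.0614). The other 2 probe sets were also higher on every transgenic array, at 0.68 (SE 0.21) and 0.74 (SE 0.26), and did not pass (limma adjusted p = 0.0675 and 0.0960). The dimmer of these passed without wild-type 1 (limma adjusted p = 0.0433). At the brightest probe set the rise passed in all 16 alternatives, with adjusted p of at most 0.0186.

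Tbc1d4, also called AS160, the main Akt target among the Rab-regulating proteins, was higher on all transgenic arrays at both probe sets and passed at the dimmer one. The brighter gave 902.8, 608.6 and 644.9 in transgenic against 519.1, 522.7 and 547.3 in wild-type muscle. Transgenic 1 stood above the other transgenic arrays here. The log2 difference of 0.41 (SE 0.15) did not pass (limma adjusted p = 0.110), and without transgenic 1 it was 0.24 (limma adjusted p = 0.323). The dimmer probe set gave 251, 254.6 and 251.3 in transgenic against 102.8, 159.6 and 187 in wild-type muscle, a log2 difference of 0.73 (SE 0.19, limma adjusted p = 0.0349). It passed without wild-type 3 (limma adjusted p = 0.0120) and not without any 1 of the other arrays, with adjusted p of 0.0671 to 0.101. The call was also lost with no filter, without the intensity trend and after median scaling (limma adjusted p = 0.0675, 0.0895 and 0.0945). The mean over both probe sets rose by 0.57 (limma adjusted p = 0.0223).

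For each single value above, the exact two-sided permutation test over the 6 arrays gave p = 0.1 where the genotypes did not overlap, the smallest that 3 arrays against 3 allow. The limma calls therefore lean on the spread estimated across all probe sets.

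The rest of the pathway was read through 8 lists with 95 genes, of which 81 were tested by their brightest probe set, 6 were below the filter and 8 had no probe set with a single gene name. Of the 81, 9 rose and 8 fell, where 7.64% and 5.75% of all genes did so (13.4% together), and 64 did not pass. The median log2 difference was -0.02. The count of genes past the test was 6 without wild-type 1, 7 without transgenic 1, and 10 without wild-type 2, transgenic 2 or transgenic 3. Scaling each array to a common median moved the median of all probe sets by -0.14, and then 4 genes rose and 11 fell. Of all probe sets past the test, 55.2% were higher in transgenic muscle before that scaling and 28.9% after it. That shift was downward, so list medians above 0 by less than it have no settled sign. Medians below 0 would keep their sign under such a shift, but their size is likewise not settled.

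Among the other glucose transporters, Slc2a12 rose, 5 of 6 tested did not pass and none fell, while 7.64% of all genes rose and 5.75% fell. Slc2a12 encodes GLUT12, a transporter also found in insulin-sensitive tissues. Its brighter probe set gave 404, 335.9 and 350.8 in transgenic against 228.8, 280.6 and 205.3 in wild-type muscle (log2 difference 0.58, SE 0.15, limma adjusted p = 0.0294). It passed without wild-type 2 and not without any 1 of the other arrays (adjusted p of 0.0518 to 0.112), and its dimmer probe set did not pass. The list's median was 0.19. Slc2a2, Slc2a6, Slc2a9 and Slc2a13 were below the filter.

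Around the receptor, Grb14 had the largest difference of all the pathway genes listed. It encodes an adaptor that binds the activated insulin receptor and inhibits its kinase. The signals were 1441, 1286 and 1243 in transgenic against 295.9, 307.3 and 339.6 in wild-type muscle. The lowest transgenic array was far above the highest wild-type array. The means were 1323 ± 104.1 in transgenic and 314.3 ± 22.7 in wild-type muscle (SD, n = 3 each), a ratio of 4.21 and a log2 difference of 2.02 (SE 0.11, limma adjusted p = 5.86e-06). It passed in all 16 alternatives. Sh2b1, an adaptor that enhances receptor signalling, fell to 341.4 ± 62.9 in transgenic muscle, against 522.4 ± 69.6 in wild-type muscle (log2 difference -0.60, limma adjusted p = 0.0313). It passed without transgenic 1 or wild-type 3 but not without any 1 of the other arrays (adjusted p of 0.0705 to 0.125). The other 8 of 10 tested adaptors and receptor relatives did not pass, among them Grb10, at -0.09 (SE 0.12), and Igf1r, at 0.04 (SE 0.15). The list's median was 0.01, and 13.4% of all genes passed.

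Of 10 tested brakes on the receptor, its substrates and PI3-kinase signalling, 2 rose and none fell. Of all genes, 7.64% rose and 5.75% fell. The remaining 8 did not pass, and the list's median was 0.02. Both that rose encode phosphatases that remove the lipid made by PI3-kinase. Inppl1, or SHIP2, gave 1131, 1159.9 and 1217 in transgenic against 718, 824.6 and 728.3 in wild-type muscle (log2 difference 0.62, SE 0.11, limma adjusted p = 0.00397). Inpp5k, or SKIP, gave 559.1, 584.7 and 567.7 in transgenic against 348.9, 373.6 and 369.2 in wild-type muscle (log2 difference 0.63, SE 0.11, limma adjusted p = 0.00477). Neither overlapped between genotypes, and both passed in all 16 alternatives. A second Inpp5k probe set rose by 1.001 (limma adjusted p = 0.0160), and the third, at 0.50, did not pass (limma adjusted p = 0.110). The tyrosine phosphatase Ptpn1, which dephosphorylates the receptor, was at -0.01 (SE 0.13).

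In the PI3-kinase, PDK1, Akt and mTORC2 list, Pik3cd rose and Rictor fell among 11 tested genes, each at 1 probe set only, and 9 did not pass. Pik3cd, a catalytic subunit best known from leukocytes, gave 948.7, 907.8 and 676.9 in transgenic against 526.2, 604.1 and 521.7 in wild-type muscle (log2 difference 0.59, limma adjusted p = 0.0236). Its 2 dimmer probe sets pointed the other way, at -1.09 and -0.12, and did not pass, so the direction for this gene is uncertain. Rictor, a subunit of the complex that phosphorylates Akt, was at 175.8 ± 30.7 in transgenic and 267.2 ± 8.9 in wild-type muscle (log2 difference -0.58, limma adjusted p = 0.0368), while its 4 other tested probe sets did not pass and lay between -0.83 and 0.36. The mean over its probe sets was at -0.16 (limma adjusted p = 0.601). Pik3cd was not past the threshold without transgenic 1, transgenic 2 or wild-type 1 (adjusted p of 0.0834 to 0.101), and Rictor passed only without transgenic 3 (0.0721 to 0.102 without any 1 of the others). Akt1, the Akt isoform tied to growth, was at -0.06 (SE 0.14). The list's median was 0.00146, and 13.4% of all genes passed.

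Among 12 tested Akt substrates and mTORC1 genes, Foxo3 and Gsk3a rose, Gsk3b fell and the remaining 9 did not pass. The median was 0.03, and 13.4% of all genes passed. Foxo3, a transcription factor that Akt keeps out of the nucleus, gave 309.5, 447.5 and 376.3 in transgenic against 219.2, 229.7 and 192.5 in wild-type muscle. The log2 difference was 0.77 (SE 0.16, limma adjusted p = 0.0103), and its other probe set, at 0.33, did not pass (limma adjusted p = 0.374). Of 16 alternatives the rise failed in 1, the mean over both tested probe sets, at 0.55 (limma adjusted p = 0.0605). The genes of the glycogen synthase kinases that Akt inhibits went in opposite directions. Gsk3a was at 1514 ± 334.7 in transgenic and 1005.3 ± 72.4 in wild-type muscle (log2 difference 0.56, limma adjusted p = 0.0417). Gsk3b was at 865 ± 31.6 in transgenic and 1119 ± 65.3 in wild-type muscle (-0.36, limma adjusted p = 0.0439), and 2 of its 5 other tested probe sets also fell, by 0.56 and 0.65. Gsk3a passed without transgenic 2 and Gsk3b without wild-type 3, and neither passed without any 1 of the other arrays (adjusted p of 0.0687 to 0.143 for Gsk3a and 0.0923 to 0.166 for Gsk3b).

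**Figure D4:**
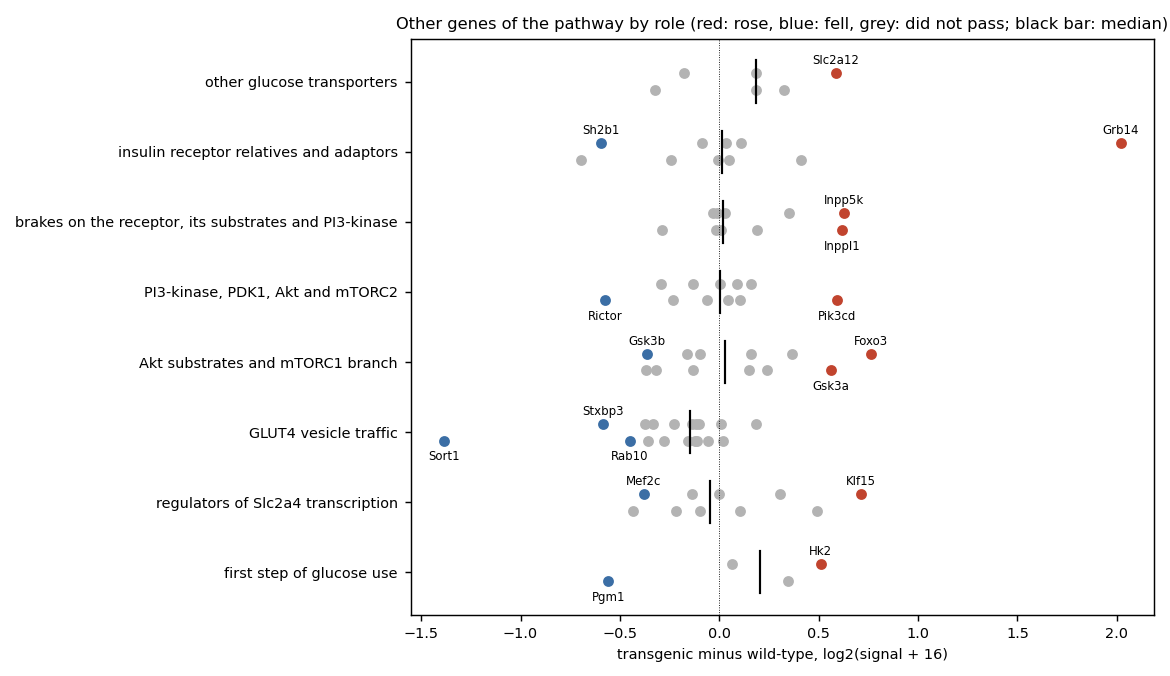
Each point is a tested gene of 1 of 8 pathway lists, placed by its difference of transgenic minus wild-type on the log2(signal + 16) scale, with red for genes that rose, blue for genes that fell, grey for those that did not pass, and a black bar at the list's median. Grb14 at 2.02 and Sort1 at -1.38 lie farthest out, and in the GLUT4 vesicle list the 3 genes that passed fell.

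In the GLUT4 vesicle list, 3 of 18 tested genes fell, none rose and 15 did not pass, while 5.75% of all genes fell and 7.64% rose. The median was -0.15, against 0.03 over all genes. Sort1, sortilin, which sorts GLUT4 into its storage vesicles, gave 414.7, 356.6 and 387.7 in transgenic against 860.4, 1030.3 and 1237 in wild-type muscle. The genotypes stood well apart. The log2 difference was -1.38 (SE 0.14, limma adjusted p = 0.000215), it passed in all 16 alternatives, and the other 2 probe sets fell by 1.47 and 0.95. Rab10, a Rab that TBC1D4 holds inactive in adipocytes, gave 5588, 6602 and 5798 in transgenic against 9430, 8358 and 6944 in wild-type muscle (log2 difference -0.45, limma adjusted p = 0.0378). Its other probe sets fell by 0.68 and 0.70 (limma adjusted p = 0.00657 and 0.00328). At the brightest the call was kept without transgenic 2 or wild-type 3 and lost without any 1 of the others (adjusted p of 0.106 to 0.141). Stxbp3, or Munc18c, which controls the fusion of GLUT4 vesicles, was at 621.7 ± 98.3 in transgenic and 931.8 ± 38.9 in wild-type muscle (-0.58, limma adjusted p = 0.0161). It passed in 13 of 16 alternatives, and not without wild-type 1 (limma adjusted p = 0.0727) or without the intensity trend (adjusted p = 0.0748). The dimmer Stxbp3 probe set overlapped between genotypes and did not pass, at -0.23 (limma adjusted p = 0.564). The brightest probe set of Vamp3, a vesicle SNARE, was at -0.12 and did not pass, while another rose by 0.50 (limma adjusted p = 0.0382).

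Regulators of Slc2a4 transcription went both ways: Klf15 rose, Mef2c fell and 8 of 10 tested did not pass. The median was -0.05, and 13.4% of all genes passed. Klf15, a Krüppel-like factor, gave 799.5, 820.2 and 525 in transgenic against 365.7, 542.1 and 376.4 in wild-type muscle, with overlap of 1 array from each genotype (log2 difference 0.71, limma adjusted p = 0.0409). Mef2c, of the family that binds the Slc2a4 promoter, was at 5125 ± 129.9 in transgenic and 6696 ± 720.3 in wild-type muscle (-0.38, limma adjusted p = 0.0346), and 1 of its 4 other tested probe sets fell too, by 0.60. Klf15 passed without transgenic 3 or wild-type 2 and Mef2c without wild-type 3, and neither passed without any 1 of the other arrays (adjusted p of 0.0856 to 0.147 for Klf15 and 0.0680 to 0.147 for Mef2c). The coactivator Ppargc1a was at 731.2 in transgenic and 734.4 in wild-type muscle. At the first steps of glucose use, Hk2, the hexokinase of insulin-sensitive muscle, gave 5123, 5446 and 5197 in transgenic against 3555, 4056 and 3466 in wild-type muscle, and rose by 0.51 (limma adjusted p = 0.00638). Pgm1, a phosphoglucomutase that links glucose 6-phosphate to glycogen, was at 5838 ± 371.8 in transgenic and 8665 ± 1338 in wild-type muscle, and fell by 0.56 (limma adjusted p = 0.0136). Pgm1 passed without transgenic 2 or wild-type 3 and not without any 1 of the others (adjusted p of 0.0525 to 0.0632), and its other probe set fell by 0.99 (limma adjusted p = 0.00793). The other 2 of 4 tested, Hk1 and Pgm2, did not pass, and the list's median was 0.20.

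Some genes outside the pathway tracked the transporters over the 6 arrays. For Slc2a4, the 5 genes with the highest Pearson correlation were Ubald1 (0.997), E2f1 (0.991), E2f4 (0.980), Nfe2l1 (0.977) and Cdc34 (0.9751), none of which passed the genotype test. For Slc2a3 they were Ighm (0.998), Psmd8 (0.997), Smox (0.997), Mylk2 (0.997) and 2310015K22Rik (0.996), all of which fell. With 6 arrays in 2 genotypes, a gene that separates the genotypes, as Slc2a3 does, correlates with any other that does. The 5 genes for Slc2a4 do not separate them, and were the highest picked from the 12537 genes tested. E2f1 was also dim, at 11.1 to 88.1. All these values describe these arrays only.

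As a check of the tissue, 9 skeletal muscle fibre markers had mean signals of at least 5589, and their sum was 159815 to 178708 in transgenic and 126444 to 156234 in wild-type muscle. Of them Mb, Myh1 and Myh2 rose and none fell at the brightest probe set, while 7.64% of all genes rose and 5.75% fell. The other tested probe set of Ckm and 1 of the 5 others of Ttn fell, and the 2 others of Myh1 rose. Of the red cell markers, 2 were tested and 0 passed, with a sum over 4 of 169.6 to 185.8 in transgenic and 106 to 123.3 in wild-type muscle. Within that sum Hba-a1 and Epb42 were below the filter, at mean signals of 19.5 and 10.8. Of the 2 tested, Slc4a1 overlapped between genotypes, at -0.01, and Alas2, at 0.73, did not. The sum of 5 Schwann and perineurial markers was 1567 to 2027 in transgenic and 1490 to 1695 in wild-type muscle. That of 6 fibroblast markers was 28625 to 29019 in transgenic and 29490 to 35275 in wild-type muscle. No marker of either list passed at its brightest probe set, while 1 of the 7 other tested probe sets of Mbp, a Schwann marker, rose. Their part in the results above was not tested.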

How the data were processed

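The authors deposited a linear intensity, the MAS5 signal per the submitters' processing notes, for each probe set and array. For the MAS5 version and settings, the sources used here give nothing. Each deposited array had a 2% trimmed mean of 200.0. Signals were analysed as log2(signal + 16) without further normalization. After removal of 64 control probe sets from 45101, the 27018 with a mean signal above the 40th percentile, 37.7, were tested with limma 3.58.1 in R 4.3.3 (lmFit, then eBayes with its prior variance following intensity, two-sided tests), and p adjusted by Benjamini-Hochberg over all of them. A gene was represented by its brightest single-gene probe set. Gene names came from the platform annotation, in which 34945 probe sets have 1 symbol, 932 several and 9160 none, and the 10 genes described matched the GRCm38.p6 gene table. Named besides these 10 are the genes that passed in each pathway list, at most 5 a list, Esrrg, and the 5 best correlated with Slc2a4 and Slc2a3; Grb10, Igf1r, Ptpn1, Akt1, Vamp3, Ppargc1a, Hk1, Pgm2, the transporters below the filter and the cell type markers were named after their values were seen. The genes and lists were chosen with earlier results of these data known. The fit was tested on simulated data. Alternatives varied the offset, the filter, the scaling, the eBayes variance model and the probe set taken per gene, added array weights or a replicate block, and left out each array. Plots used Python 3.11.15 and matplotlib 3.10.9.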

Additional observations from a re-analysis of the deposited data

How the results depend on the processing

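The count of the 10 genes past the test was 3 in most alternatives, 4 after median scaling or with array weights, and 5 with the mean over the probe sets of a gene. It was 3 to 4 with 1 array left out. The count of their probe sets, 7 of 24, was 4 in eBayes without an intensity trend. It was 5 of 27 with no filter and 5 to 8 with 1 array left out. Over all probe sets, 3115 passed, against 1580 without the trend and 1709 to 3300 with 1 array left out: 1709 and 1876 on leaving out wild-type 1 and 2, 1917 and 2048 on leaving out transgenic 1 and 2. The share of calls that were higher in transgenic muscle was 55.2%, and 28.9% after median scaling. Genes of the lists past the test, 17 of 81, fell to 5 without the trend, where Hk2 had an adjusted p of 0.0657. After median scaling Slc2a12, Pik3cd, Gsk3a, Klf15, Hk2 and the Tbc1d4 probe set did not pass. No replicate block changed a call of the 10 genes: 3 genes, 7 probe sets and 2741 probe sets in all passed with it, Gsk3a and Gsk3b did not, and same-numbered arrays correlated at 0.07, -0.08 and -0.02 in their deviations from the group means, so the numbers were not taken as pairs. Signs turned at probe sets that passed in no alternative, and for Pik3cd. The dimmest Slc2a1 probe set was at -0.12 after median scaling, -0.051 after quantile normalization and -0.0064 with array weights, and at -0.13 to 0.18 with 1 array left out, below 0 without transgenic 2 or wild-type 1. The brightest Slc2a4 probe set was at -0.22 to 0.00197 with 1 array left out, above 0 without transgenic 1. The brightest Insr probe set was at 0.000506 with array weights and at -0.086 to 0.039 with 1 array left out, above 0 without transgenic 2. For Pik3r1 the ranges with 1 array left out were -0.36 to 0.034, -0.39 to 0.0076 and -0.28 to 0.32 at 3 probe sets, above 0 without wild-type 3 and, at the dimmest, without transgenic 1, and the dimmest was at 0.094 with array weights. With the mean over probe sets, Slc2a1 was at 0.074, Insr at 0.26 and Pik3cd at -0.21, and Rictor (-0.16, adjusted p = 0.601) and Foxo3 (0.55, adjusted p = 0.0605) no longer passed. The causes of these moves were not tested. With 3 arrays a genotype, and with no detection calls, small changes of dim probe sets could be missed.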
